A study of Mus musculus with 22 samples.

Results

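The genes described here are 10 genes that mark or regulate stem cells of the intestinal crypt, namely Lgr5, Ascl2, Smoc2, Axin2, Rnf43, Znrf3, Lrig1, Clu, Anxa1 and Sox9. They were taken by symbol from a table of 46078 genes, and each symbol matched 1 row. Gene expression was measured by RNA-Seq of poly(A) RNA from distal colon of 22 mice. The 8 C57BL/6 mice (4 males, 4 females) were 14 weeks old and wild type. The 7 Winnie mice (3 males, 4 females) were also 14 weeks old and carry a missense mutation of the mucin gene Muc2, which leads to spontaneous chronic colitis. The 7 Winnie-Prolapse mice (4 males, 3 females) were Winnie mice labelled as severely inflamed and aged 18 weeks, so that age and prolapse cannot be told apart. The labels name no agent, and each library came from the colon of 1 mouse. The mutation is carried by the whole animal, so these are not stem cell specific models. The values are read counts, given here as counts-per-million (CPM) of the library total. Libraries held 24817527 to 36344372 counts, and the lowest count of any member in any library was 39.

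The lining of the colon is renewed from stem cells at the base of the crypts. R-spondins secreted by the stroma bind Lgr receptors on these cells and keep the ubiquitin ligases Rnf43 and Znrf3 from removing Frizzled receptors, so that Wnt signals reach their target genes. After injury, crypts can also pass through a fetal-like or regenerative state, in which Clu and Anxa1 are among the marker genes and the transcription co-activator YAP is active. In whole tissue, fewer cells of a type and less RNA per cell cannot be told apart, and several of the members are also expressed outside the epithelium.

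Some libraries stood apart. C57BL/6 replicate 7 had 0.217 CPM of Hoxd13 and 16.4 CPM of Hoxb13, genes that mark the distal hindgut, whereas the other 21 libraries had 111 to 288 CPM and 177 to 612 CPM, respectively. C57BL/6 replicate 7 was therefore low in markers of its labelled distal tissue. These 2 genes were chosen after their values were seen. Transcripts of 9 squamous epithelium genes (Krt5, Krt14 and others, markers of skin and anal lining) summed to 1.54 to 4.05 CPM in 16 libraries. The sum was 52.9 CPM in Winnie replicate 2 and 181 to 2654 CPM in Winnie-Prolapse replicates 2, 4, 5, 6 and 7. Milk protein transcripts took 18% of the counts of Winnie-Prolapse replicate 6. Transcripts of 8 epithelial genes (Epcam, Cdh1 and others) summed to 8690 to 10660 CPM in C57BL/6, 9214 to 12751 CPM in Winnie and 7351 to 12630 CPM in Winnie-Prolapse, and none of the 8 passed a limit in any of the 3 comparisons between groups with edgeR or DESeq2 over all libraries of the groups. With the 5 squamous-rich Winnie-Prolapse libraries left out, 2 of the 8 were higher in Winnie-Prolapse than in C57BL/6 at an adjusted p under 0.05 and 1.5-fold (edgeR).

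The members are protein-coding genes on 7 chromosomes (GRCm38, GENCODE M21 annotation), with 4 of them on chromosome 11. The Lgr5 cell genes were Lgr5 (ENSMUSG00000020140) at chr10:115450311-115587780 (minus strand), Ascl2 (ENSMUSG00000009248) at chr7:142966829-142969264 (minus strand) and Smoc2 (ENSMUSG00000023886) at chr17:14279506-14404790 (plus strand). The Wnt feedback genes were Axin2 (ENSMUSG00000000142) at chr11:108920349-108950783 (plus strand), Rnf43 (ENSMUSG00000034177) at chr11:87662722-87735539 (plus strand) and Znrf3 (ENSMUSG00000041961) at chr11:5276324-5444847 (minus strand). The remaining members were Lrig1 (ENSMUSG00000030029) at chr6:94604529-94700158 (minus strand), Clu (ENSMUSG00000022037) at chr14:65968483-65981547 (plus strand), Anxa1 (ENSMUSG00000024659) at chr19:20373428-20390944 (minus strand) and Sox9 (ENSMUSG00000000567) at chr11:112782224-112787760 (plus strand). Genes on the opposite strand overlap Lgr5, Smoc2, Axin2, Rnf43, Lrig1 and Anxa1. The libraries were stranded, but the strand setting of the counting was not given in the sources used here, so it is uncertain whether reads of these 6 genes and their partners were kept apart.

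Promoter sequences are shown for the members that passed a limit in at least 1 of the comparisons between groups. From RefSeq (GRCm38.p6), promoters were found for 5 of the 10 members, Ascl2, Axin2, Rnf43, Lrig1 and Anxa1. The 250 bases before the start site were searched on both strands for the TCF/LEF word CTTTGAT, the TEAD word GGAATG and the E-box word CAGCTG, each counted on its own, also where words overlap. Of 32851 promoter windows of this length, 3.21% held the TCF/LEF word, 12.6% the TEAD word and 13% the E-box. In the windows of the 5 members only 1 word was found, a TEAD word in Anxa1 on the opposite strand, beginning 236 bases before the start. The windows of Ascl2 (chr7:142969265-142969514, minus strand) and Axin2 (chr11:108920099-108920348, plus strand), which lie before the first annotated exon, are given in full. For Anxa1 (chr19:20390892-20390919, minus strand) a stretch of 28 bases around the word is given, with the word in capitals, since its window meets an annotated exon. Each is written 5′ to 3′ on the strand of the gene.
Ascl2: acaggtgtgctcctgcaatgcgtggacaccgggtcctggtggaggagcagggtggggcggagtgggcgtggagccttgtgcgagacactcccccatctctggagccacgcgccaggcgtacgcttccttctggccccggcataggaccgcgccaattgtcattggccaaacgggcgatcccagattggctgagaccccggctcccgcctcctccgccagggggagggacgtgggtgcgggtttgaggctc
Axin2: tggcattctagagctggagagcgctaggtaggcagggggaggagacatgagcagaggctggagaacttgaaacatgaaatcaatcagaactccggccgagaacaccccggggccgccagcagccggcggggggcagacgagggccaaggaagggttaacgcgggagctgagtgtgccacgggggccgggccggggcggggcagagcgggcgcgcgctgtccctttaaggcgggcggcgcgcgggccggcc
Anxa1: actgcactgaacCATTCCtgtgaggaat
The windows of Ascl2 and Axin2 are rich in G and C (67.6% and 69.2%, against a median of 52.4% over all windows), and that of Anxa1 is not (46%).

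Per kilobase of exon, the members differed widely in level. In C57BL/6 the median was highest for Anxa1 (56.2 CPM per kb), followed by Sox9 (29.2), Clu (18.8), Lrig1 (13.8) and Rnf43 (7.44). Ascl2 (4.51), Axin2 (4.41) and Smoc2 (3.69) came next, then Znrf3 (2.23), and Lgr5 was lowest (0.877). The ranges of Sox9, Clu and Lrig1 overlapped along that order, as did those of Rnf43, Ascl2, Axin2 and Smoc2, whereas Anxa1 stood above Sox9, Lrig1 above Rnf43, Smoc2 above Znrf3 and Znrf3 above Lgr5 in every C57BL/6 library. In Winnie-Prolapse the median of Anxa1 was 234 CPM per kb, Clu (30.9) stood above Sox9 (21.1), and Ascl2 (1.51) stood beside Znrf3 (1.49), with Lgr5 again lowest (0.533).

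**Figure D1:**
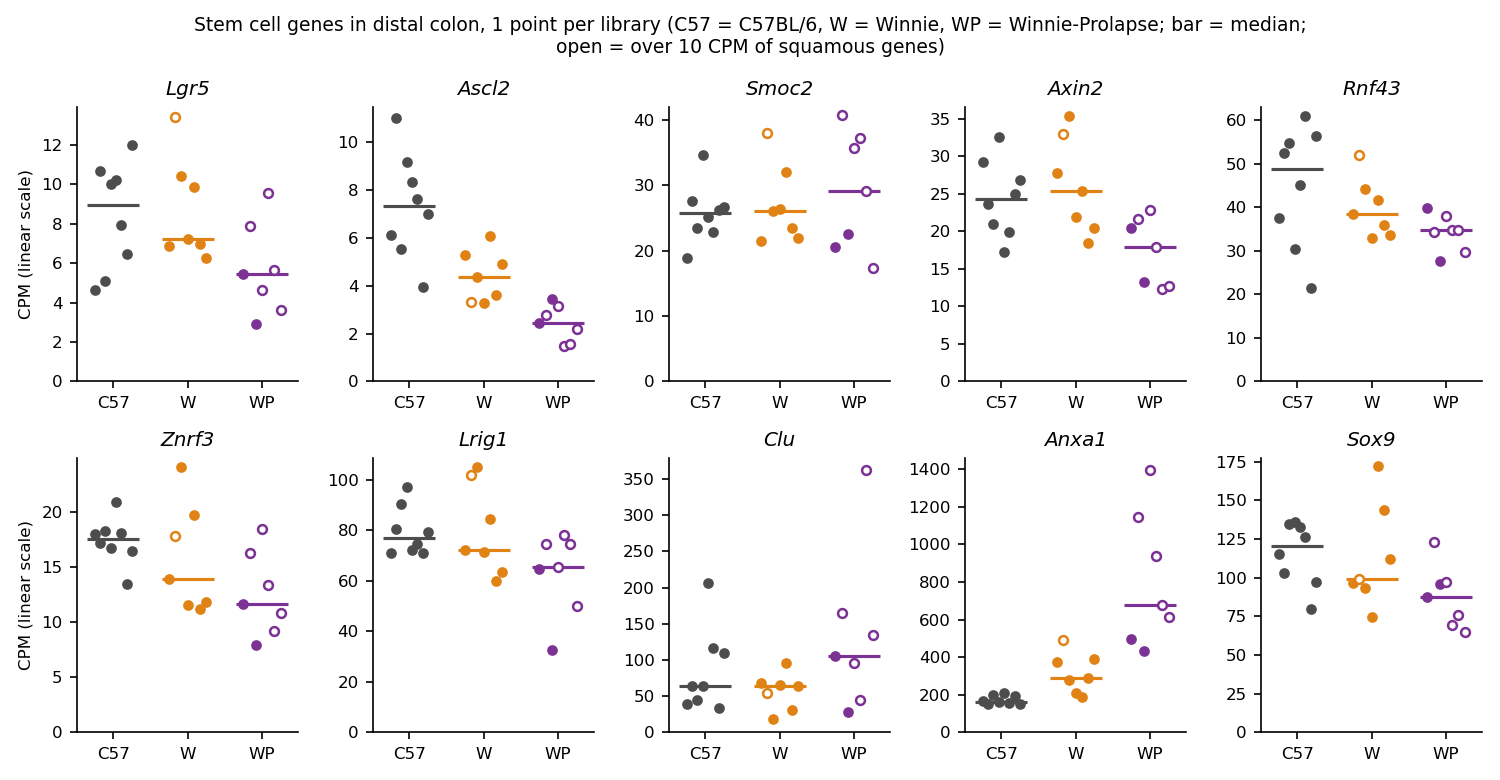
CPM of each of the 10 genes on a linear axis, with 1 point for each of the 22 libraries, the group median as a bar and libraries with over 10 CPM of squamous genes as open points. The Winnie-Prolapse points of Ascl2 (1.5 to 3.45 CPM) lie below all C57BL/6 points and those of Anxa1 (432 to 1397 CPM) above them, whereas the groups overlap for the other 8 genes.

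Winnie-Prolapse mice were compared with C57BL/6 mice to set severe colitis against the wild type. Anxa1 rose 4.86-fold and Ascl2 fell to 0.354 of its C57BL/6 level. These were the only 2 of the 10 members past the limits of the study, an adjusted p under 0.001 and at least 1.5-fold (edgeR quasi-likelihood test, Benjamini-Hochberg adjustment over all genes tested). Of 17397 genes tested, 18.3% passed these limits. The 2 members were also the only ones whose groups did not overlap, which held for 16.0% of all genes tested. The share of members past the limits was therefore near that of all genes. A wider limit, an adjusted p under 0.05 and at least 1.5-fold, was passed by the same 2 members and by 34.4% of all genes. At an unadjusted p under 0.05 there were 5 members and 58.5% of all genes. DESeq2 called the same 2 members at the limits of the study, and 20.7% of all genes with an adjusted p.

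Ascl2, a basic helix-loop-helix transcription factor that maintains the stem cell state and is itself a Wnt target, had 3.95, 7.33 and 11 CPM as the lowest, median and highest value in C57BL/6. In Winnie it had 3.28, 4.36 and 6.07 CPM, and in Winnie-Prolapse 1.5, 2.46 and 3.45 CPM. Every Winnie-Prolapse library was thus lower than every C57BL/6 library, and the Winnie libraries overlapped both groups, with 3 of 7 below the lowest C57BL/6 value. The log2 fold change of Winnie-Prolapse against C57BL/6 was -1.50 ± 0.22 (SE; edgeR adjusted p = 6.21e-05, n = 7 and 8). It was -1.58 ± 0.20 (edgeR adjusted p = 1.87e-05) without C57BL/6 replicate 7, the lowest C57BL/6 library, and -1.43 ± 0.24 (edgeR adjusted p = 0.00023) without Winnie-Prolapse replicate 6. With the 5 Winnie-Prolapse libraries rich in squamous transcripts left out, it was -1.13 ± 0.35 (edgeR adjusted p = 0.0425, n = 2 and 8) and no longer passed the limits of the study. The 2 remaining libraries had 2.46 and 3.45 CPM.

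Anxa1 encodes annexin A1, a phospholipid-binding protein that dampens inflammation and is made by myeloid cells and squamous epithelium as well as by regenerating crypts. It had 150, 164 and 208 CPM as the lowest, median and highest value in C57BL/6. In Winnie the values were 187, 287 and 492 CPM, and in Winnie-Prolapse 432, 680 and 1397 CPM. All 7 Winnie-Prolapse libraries lay above the highest C57BL/6 library, and 6 of 7 Winnie libraries did. The log2 fold change of Winnie-Prolapse against C57BL/6 was 2.28 ± 0.20 (SE; edgeR adjusted p = 4.68e-07, n = 7 and 8). It was 2.31 ± 0.21 (edgeR adjusted p = 6.98e-07) without C57BL/6 replicate 7 and 2.29 ± 0.20 (edgeR adjusted p = 1.33e-06) without Winnie-Prolapse replicate 6.

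Anxa1 was highest in libraries that also held squamous transcripts. The 5 Winnie-Prolapse libraries with 181 to 2654 CPM of squamous genes had 612 to 1397 CPM of Anxa1, and the 2 others, replicates 1 and 3, had 496 and 432 CPM. In Winnie-Prolapse replicates 2, 4, 5, 6 and 7 the squamous sums were 1945, 969, 181, 245 and 2654 CPM. Anxa1 was at 1143, 1397, 936, 680 and 612 CPM in the same order, so it did not rise steadily with the squamous sum. Without those 5 libraries, a setting chosen after seeing the data, the log2 fold change of Anxa1 was 1.59 ± 0.14 (edgeR adjusted p = 2.33e-05, n = 2 and 8). With all libraries it was 2.28 ± 0.20, and both values passed the limits of the study. Of 8 neutrophil genes, S100a8 had medians of 0.11 CPM in C57BL/6, 2.39 CPM in Winnie and 78.9 CPM in Winnie-Prolapse, and S100a9 had 0.0735, 3.35 and 60.5 CPM. The sum of the 8 was 243 to 359 CPM in C57BL/6 with replicate 7 (4.27 CPM) left aside, 315 to 662 CPM in Winnie and 565 to 1965 CPM in Winnie-Prolapse. In C57BL/6 that sum was nearly all Ly6g (median 286 CPM), which did not pass (1.02 ± 0.51) with replicate 7 in the fit. In Winnie the medians of S100a8 and S100a9 were likewise a small part of the median sum of 441 CPM. The sum is therefore not read here as a level of neutrophils. Without C57BL/6 replicate 7, Ly6g was higher at the wider limit in both Winnie-Prolapse and Winnie. Most neutrophil, squamous and milk protein genes were near 0 in C57BL/6 and passed the filter on low counts, where they did, through the colitis libraries, so they are given by their levels and not by counts of calls. Ivl, a defining gene of that epithelium, was at 0 in all C57BL/6 libraries. The part of the squamous and neutrophil genes in the change of Anxa1 was not tested.

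**Figure D2:**
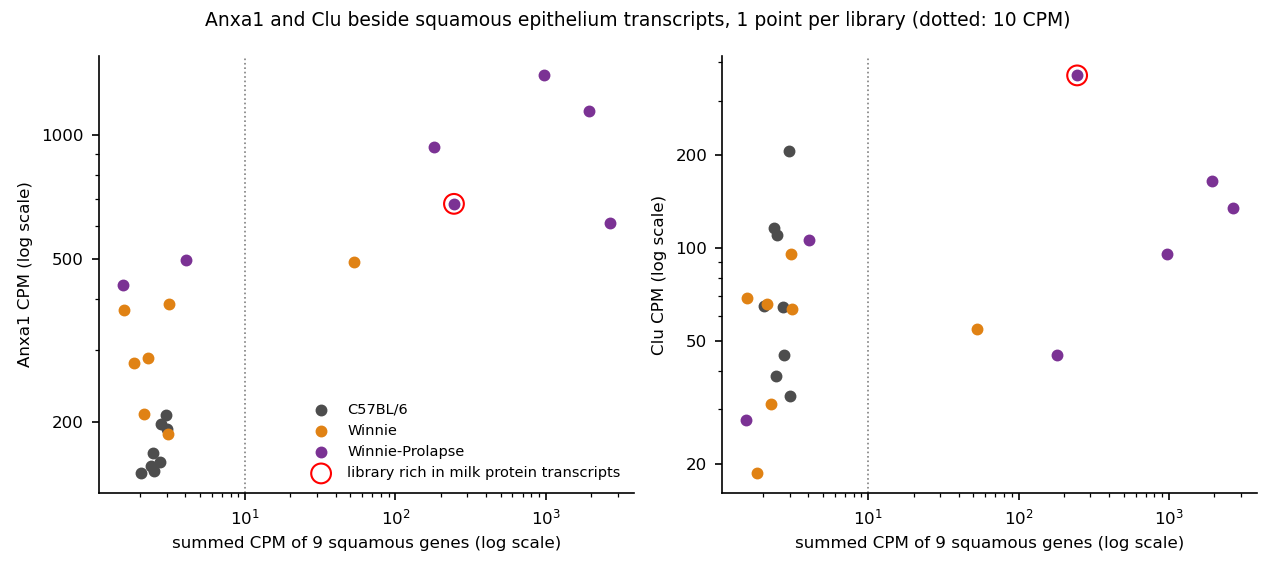
CPM of Anxa1 (left) and Clu (right) against the summed CPM of 9 squamous epithelium genes, both on log axes, with 1 point per library coloured by group and the library rich in milk protein transcripts circled. The 2 Winnie-Prolapse libraries left of the dotted line at 10 CPM had 432 and 496 CPM of Anxa1, above the C57BL/6 maximum of 208 CPM, and the circled library had the highest Clu, 362 CPM.

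Clu encodes clusterin, a secreted chaperone that marks the revival stem cells of injured crypts and is also made by other cells, such as follicular dendritic cells. Its lowest, median and highest values were 33.1, 64.5 and 206 CPM in C57BL/6, 18.6, 63.5 and 95.9 CPM in Winnie and 27.7, 106 and 362 CPM in Winnie-Prolapse. The groups overlapped in every comparison, and Winnie-Prolapse held both the highest value and the second lowest of all libraries. The log2 fold change of Winnie-Prolapse against C57BL/6 was 0.82 ± 0.51 (SE; edgeR adjusted p = 0.19). It was 0.21 ± 0.43 without Winnie-Prolapse replicate 6, the highest library, and 0.70 ± 0.52 without C57BL/6 replicate 7. Without the 5 squamous-rich libraries it was -0.21 ± 0.65, with the opposite sign. The highest C57BL/6 value of Clu (206 CPM) was in replicate 5.

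Among the Wnt receptor and feedback genes, no member passed the limits of the study. Lgr5, the R-spondin receptor that marks crypt base stem cells, had 4.65, 9 and 12 CPM as the lowest, median and highest value in C57BL/6 and 2.93, 5.47 and 9.58 CPM in Winnie-Prolapse. Of 7 Winnie-Prolapse libraries, 3 lay below the lowest C57BL/6 library, and the log2 fold change was -0.48 ± 0.25 (SE; edgeR adjusted p = 0.112). It was -0.64 (edgeR adjusted p = 0.0411) without Winnie-Prolapse replicate 5, the highest of that group (9.58 CPM), and -0.84 ± 0.37 (edgeR adjusted p = 0.128) without the squamous-rich libraries. Axin2, a scaffold of the complex that degrades beta-catenin and a common readout of Wnt signalling, had 17.2, 24.3 and 32.6 CPM in C57BL/6 and 12.3, 17.9 and 22.8 CPM in Winnie-Prolapse, with 3 of 7 libraries below all C57BL/6 libraries. Its log2 fold change of -0.43 ± 0.14 had an edgeR adjusted p of 0.0174 but was smaller than 1.5-fold. Znrf3, the ligase that clears Frizzled, had 13.5, 17.6 and 20.9 CPM in C57BL/6 and 7.9, 11.7 and 18.5 CPM in Winnie-Prolapse. In 5 of 7 Winnie-Prolapse libraries it was below every C57BL/6 library, and its log2 fold change of -0.42 ± 0.13 (edgeR adjusted p = 0.0129) was again smaller than 1.5-fold. Without the squamous-rich libraries Znrf3 was at -0.67 ± 0.17 (edgeR adjusted p = 0.0212) and past 1.5-fold. Rnf43, its homologue, was at -0.31 ± 0.19 on the log2 scale (edgeR adjusted p = 0.17). C57BL/6 replicate 7 had the lowest Rnf43 of all libraries (21.5 CPM), and without it the value was -0.41 ± 0.15 (edgeR adjusted p = 0.0274).

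The other 3 members did not pass either limit. Lrig1, a transmembrane inhibitor of ErbB receptors that marks crypt stem and progenitor cells, had 70.9, 77 and 97 CPM in C57BL/6 and 32.5, 65.6 and 78.2 CPM in Winnie-Prolapse (log2 fold change -0.26 ± 0.15, edgeR adjusted p = 0.148). The low value of 32.5 CPM belonged to Winnie-Prolapse replicate 3, which was the lowest of all 22 libraries for Lgr5 (2.93 CPM) and Znrf3 (7.9 CPM) too. Sox9, a transcription factor of crypt base cells, had 79.8, 121 and 136 CPM in C57BL/6 and 65.2, 87.4 and 123 CPM in Winnie-Prolapse (-0.32 ± 0.13, edgeR adjusted p = 0.0532). Smoc2, a secreted calcium-binding protein of the Lgr5 cell signature, had 18.9, 25.7 and 34.6 CPM in C57BL/6 and 17.4, 29.1 and 40.8 CPM in Winnie-Prolapse (0.25 ± 0.16, edgeR adjusted p = 0.187). Smoc2 was higher than in any C57BL/6 library in 3 of 7 Winnie-Prolapse libraries, all 3 rich in squamous transcripts, and its log2 fold change was -0.07 ± 0.17 without the squamous-rich libraries. Of the 10 members, 7 had a negative and 3 a positive log2 fold change, with a median of -0.32 against -0.01 over all genes tested.

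Winnie mice were compared with C57BL/6 mice of the same age. Of the 10 members 0 passed the limits of the study (edgeR quasi-likelihood test), against 0.0925% of 17289 genes. That share is 16 genes, a number that ranged from 0 to 677 on leaving out each library in turn. At an unadjusted p under 0.05 there were 2 members and 39.9% of all genes. At the limits of the study DESeq2 called 1 member, Anxa1, and 5.44% of all genes with an adjusted p. At the wider limit 15.9% of all genes passed, and so did 2 of 10 members. Anxa1 rose at this limit by 0.95 ± 0.18 on the log2 scale (SE; edgeR adjusted p = 0.00353, n = 7 and 8), and Ascl2 fell by 0.65 ± 0.20 (edgeR adjusted p = 0.0265). Without C57BL/6 replicate 7 the log2 fold changes were 0.98 ± 0.19 for Anxa1 and -0.74 ± 0.17 for Ascl2 (edgeR adjusted p = 0.00338 and 0.0086). Without Winnie replicate 2, the squamous-rich library, they were 0.84 ± 0.17 and -0.58 ± 0.20 (edgeR adjusted p = 0.00781 and 0.0537), and Ascl2 no longer passed. Ascl2 was also lost at this limit on leaving out C57BL/6 replicate 2 or 4 or Winnie replicate 4 or 6. No member had groups without overlap, against 1.64% of all genes.

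Winnie replicate 5 was closest to C57BL/6 for the 2 genes that passed, with the lowest Anxa1 (187 CPM) and the highest Ascl2 (6.07 CPM) of its group. The remaining 8 members had log2 fold changes from -0.48 to 0.16 in this comparison, and edgeR adjusted p-values of 0.353 or more. Lgr5 had 6.26, 7.23 and 13.4 CPM as the lowest, median and highest value in Winnie, and its log2 fold change was 0.13 ± 0.21 (edgeR adjusted p = 0.661). Its median was lower in Winnie (7.23 CPM) than in C57BL/6 (9 CPM) although the fitted change was positive. The value of Clu was -0.48 ± 0.39 (edgeR adjusted p = 0.381), and -0.16 without C57BL/6 replicate 5.

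Winnie-Prolapse mice were compared with Winnie mice, and these groups differ in both prolapse and age (18 against 14 weeks). No member passed the limits of the study, and of 17041 genes 0% did (edgeR quasi-likelihood test). At an unadjusted p under 0.05 there were 5 members and 27.8% of all genes. At the limits of the study DESeq2 called Anxa1 and 2.89% of all genes with an adjusted p. At the wider limit 3 of 10 members passed, against 6.99% of all genes. Anxa1 rose by 1.34 ± 0.26 on the log2 scale (SE; edgeR adjusted p = 0.0146, n = 7 and 7). Ascl2 fell by 0.84 ± 0.21 (edgeR adjusted p = 0.0285) and Axin2 by 0.59 ± 0.14 (edgeR adjusted p = 0.0243), just past the fold limit. No member had groups without overlap, against 0.962% of genes. Without Winnie-Prolapse replicate 6, Anxa1 passed at the wider limit (1.33 ± 0.27, edgeR adjusted p = 0.0298), but Ascl2 did not (-0.79 ± 0.22, edgeR adjusted p = 0.058), nor Axin2 (-0.56 ± 0.15, edgeR adjusted p = 0.0494), which fell below the fold limit. Ascl2 also missed this limit without Winnie replicate 5 or 7 or Winnie-Prolapse replicate 5, and Axin2 missed the fold limit without Winnie replicate 1, 2 or 3 or Winnie-Prolapse replicate 3 or 7. Without all 6 squamous-rich libraries, 2 Winnie-Prolapse and 6 Winnie libraries remained, and no member passed, nor did any gene at the limits of the study. There Anxa1 was at 0.73 ± 0.28 (edgeR adjusted p = 0.567), Ascl2 at -0.57 ± 0.28 (edgeR adjusted p = 0.67) and Axin2 at -0.51 ± 0.22 (edgeR adjusted p = 0.624).

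Lgr5 was at -0.61 ± 0.23 on the log2 scale in Winnie-Prolapse against Winnie (edgeR adjusted p = 0.103), with 5 of 7 Winnie-Prolapse libraries below the lowest Winnie library (6.26 CPM). Clu was at 1.30 ± 0.51 (edgeR adjusted p = 0.115) and at 0.68 ± 0.40 without Winnie-Prolapse replicate 6. The comparisons share their groups, so that the values of a gene in one are not independent of those in another.

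**Figure D3:**
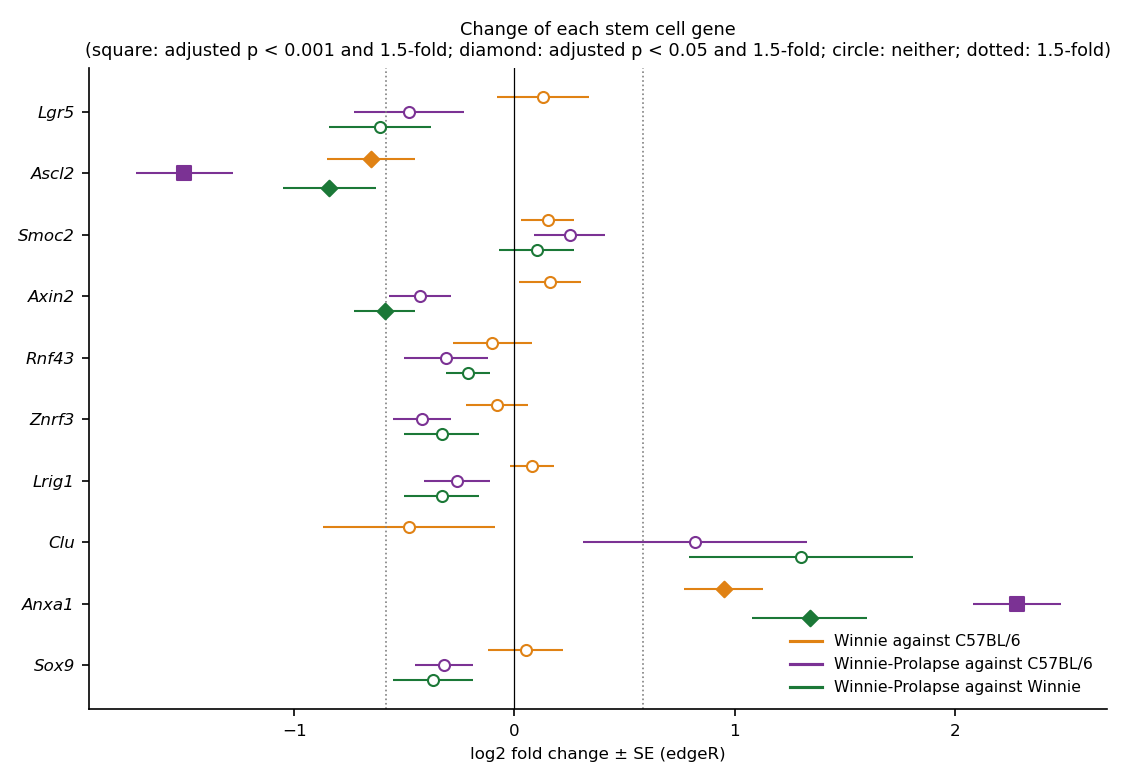
Log2 fold change with its standard error for the 10 genes in the 3 comparisons, where squares passed the limits of the study, diamonds the wider limit and circles neither, and dotted lines mark 1.5-fold. Only Ascl2 (-1.50) and Anxa1 (2.28) in Winnie-Prolapse against C57BL/6 are squares.

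Levels were also set against the summed epithelial transcripts of each library, as a description without a test. Per 1000 CPM of the 8 epithelial genes, Ascl2 had medians of 0.755 CPM in C57BL/6, 0.386 CPM in Winnie and 0.232 CPM in Winnie-Prolapse. The highest Winnie-Prolapse library (0.326) remained below the lowest C57BL/6 library (0.37). Anxa1 had medians of 17.2, 24.8 and 85.4 CPM on this scale, and the lowest Winnie-Prolapse library (34.2) was above the highest C57BL/6 library (22.5). Lgr5 had medians of 0.966, 0.653 and 0.516 CPM and Clu 7.14, 5.06 and 10 CPM, and for both genes the 3 groups overlapped.

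**Figure D4:**
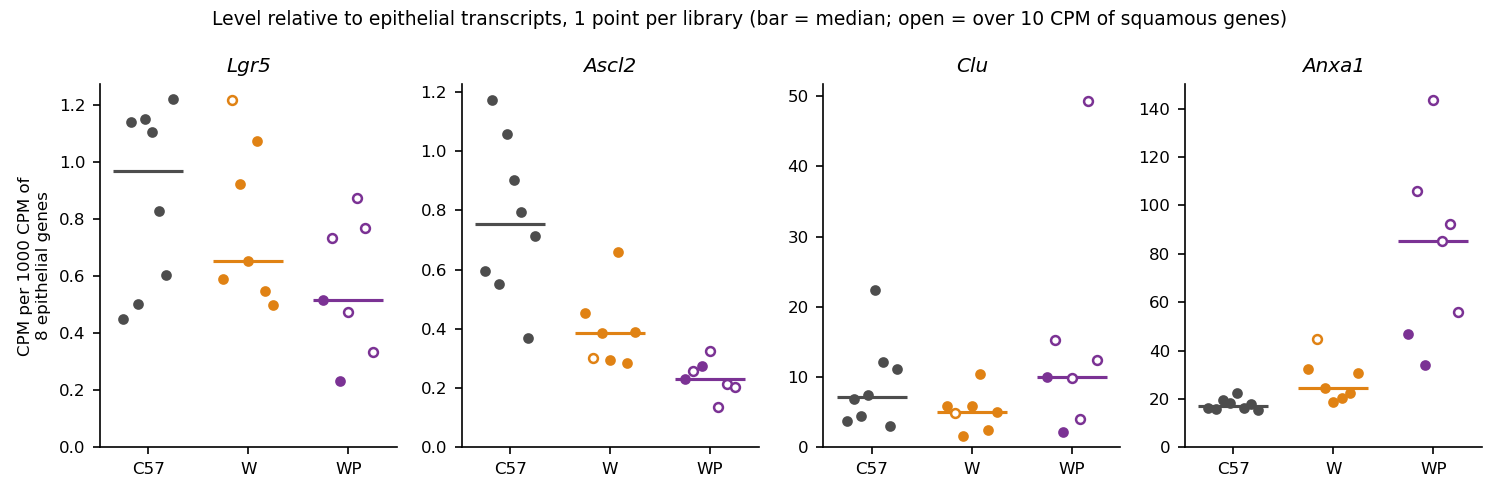
CPM of Lgr5, Ascl2, Clu and Anxa1 per 1000 CPM summed over 8 epithelial genes, on linear axes, with 1 point per library, the group median as a bar and squamous-rich libraries as open points. Ascl2 in Winnie-Prolapse (at most 0.326) lies below all C57BL/6 libraries (at least 0.37), Anxa1 lies above them, and Lgr5 and Clu overlap.

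Other genes of the same pathways were read from lists that had been chosen with earlier results of these data known. Of 17 other crypt base genes, 16 were tested, all but Olfm4. Of these, 2 were higher and 3 lower in Winnie-Prolapse than in C57BL/6 at the limits of the study, with a median log2 fold change of -0.29 (DESeq2 0.12) against -0.01 over all genes. DESeq2 called 4 higher and 4 lower, adding Olfm4, Slc12a2 and Lgr4, and it also called Olfm4 higher in Winnie-Prolapse against Winnie. Olfm4 had medians of 0.0159 CPM in C57BL/6 and 0.36 CPM in Winnie-Prolapse (highest 174 CPM), so its calls rest on the libraries where it was high. Cd44, an adhesion receptor and Wnt target that leukocytes also express, rose by 1.94 ± 0.34 on the log2 scale, and the ephrin receptor Ephb2 by 1.06 ± 0.20. The telomerase gene Tert fell by 1.23 ± 0.20, the cell cycle kinase Cdk6 by 0.70 ± 0.12 and the BMP co-receptor Rgmb by 0.60 ± 0.11. The 3 genes of this list with the highest mean levels, the water channel Aqp4 (1.43 ± 0.55), the R-spondin receptor Lgr4 (-0.61 ± 0.15) and the ion transporter Slc12a2 (0.63 ± 0.16), passed only the wider limit with edgeR. Without C57BL/6 replicate 7, Aqp4 and Lgr4 passed the limits of the study and Rgmb did not, and without Winnie-Prolapse replicate 6 Ephb2 did not. With the squamous-rich libraries left out, the calls at the limits of the study went from 3186 to 468 over all genes and to 0 in this list, with 4 lower at the wider limit, and the counts of the other lists in that setting are to be read against this general loss. In Winnie against C57BL/6 0 passed the limits of the study with edgeR or DESeq2, and 2 were higher at the wider limit, Cd44 and Aqp4, which were 0 without Winnie replicate 2.

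Of 10 tested Wnt target genes (12 in the list), 2 were higher and 1 lower in Winnie-Prolapse than in C57BL/6. Cyclin D1 (Ccnd1) rose by 1.12 ± 0.22 and Cd44 is in this list too, while Nkd2, which restrains Dishevelled, fell by 1.64 ± 0.32. Without Winnie-Prolapse replicate 6 only Cd44 of these passed, and without the squamous-rich libraries 0 did. The median of the list was 0.63, and -0.09 without the squamous-rich libraries. Tcf7l2, the main TCF factor of the epithelium, was at -0.50 ± 0.18 (edgeR adjusted p = 0.0254), short of 1.5-fold. In Winnie, 4 genes of the list were higher and 1 lower at the wider limit, Tcf7, Lef1, Myc and Cd44 against Nkd2. These counts were 2 and 0 without C57BL/6 replicate 7, and 1 and 0 without Winnie replicate 2. With library size as the only scaling they were 1 and 1. Of 8 tested genes among 10 R-spondins and Wnt receptors, the co-receptor Lrp5 rose by 0.85 ± 0.16 in Winnie-Prolapse and Rspo2 fell. Rspo2 had a median of 0.643 CPM in C57BL/6 and 0.121 CPM in Winnie-Prolapse, near the level of 3 counts (0.0825 to 0.121 CPM). It passed the filter on low counts through the C57BL/6 libraries, where it was high. Rspo3 fell by 0.85 ± 0.20 and Lgr4 by 0.61 ± 0.15 at the wider limit, and the median of the list was -0.55. Lrp6 (-0.49 ± 0.10) and Fzd5 (-0.41 ± 0.11) were short of 1.5-fold. Without Winnie-Prolapse replicate 6, or without the squamous-rich libraries, 0 genes of this list passed the limits of the study. The list medians were then -0.53 and -0.44, respectively. Without C57BL/6 replicate 7 Lrp5 and Lgr4 passed and Rspo2 was not tested, since it did not pass the filter on low counts. With edgeR 0 genes of this list passed the wider limit in Winnie against C57BL/6, whereas 2 were lower with DESeq2, and 2 with library size as the only scaling.

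Of 19 tested genes linked to fetal-like or YAP-dependent repair (20 in the list, without the members), 7 rose and none fell in Winnie-Prolapse against C57BL/6, with a median of 1.41. Ly6a, which encodes Sca-1 and marks repairing crypts as well as lymphocytes and vessels, had medians of 198 CPM in C57BL/6, 1013 CPM in Winnie and 1547 CPM in Winnie-Prolapse, a log2 fold change of 3.27 ± 0.19 (edgeR adjusted p = 7.94e-09). The others included Spp1, Sprr1a, Ereg, Tnfrsf12a and Gja1. Spp1, which encodes osteopontin, is counted among the 7 on medians of 0.201 CPM in C57BL/6 and 1.77 CPM in Winnie-Prolapse. It did not pass the filter on low counts in Winnie against C57BL/6, so its call rests on the Winnie-Prolapse libraries, where it was high. In Winnie against C57BL/6 17 genes of the list were tested, against 19 here. The count of 7 and the median of 1.41 are therefore partly set by that filter. The cornified envelope gene Sprr1a rose by 4.26 ± 0.67 and the growth factor gene Ereg by 3.10 ± 0.49. S100a6 (0.02 ± 0.19) and Emp1 (0.82 ± 0.77) had the next highest levels after Ly6a. Emp1 had medians of 121 CPM in C57BL/6 and 810 CPM in Winnie-Prolapse, with up to 3091 CPM in a C57BL/6 library, and it passed the limits of the study with DESeq2 and without C57BL/6 replicate 7, when 9 genes of the list passed. DESeq2 called 13. Without the squamous-rich libraries 1 of the 7 still passed, Ly6a (3.47), and the median was 0.71. In Winnie against C57BL/6, 2 genes of the list, Ly6a among them, were higher and Il33 lower at the wider limit with edgeR. The number higher was 4 without C57BL/6 replicate 7 and 1 without Winnie replicate 2, and DESeq2 called Ly6a and Emp1 higher at the limits of the study. In Winnie-Prolapse against Winnie, 9 were higher at the wider limit and 0 lower, with a median of 1.04, and DESeq2 called 8 at the limits of the study. Without the squamous-rich libraries (n = 2 and 6) 0 were higher, but the median was 0.87.

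Of 9 YAP and TEAD genes, 1 passed, Tead4, with medians of 2.28 CPM in C57BL/6, 4.40 CPM in Winnie and 19.5 CPM in Winnie-Prolapse and a log2 fold change of 3.20 ± 0.34 in Winnie-Prolapse against C57BL/6 (edgeR adjusted p = 3.1e-06). Without the squamous-rich libraries it was 2.14 (edgeR adjusted p = 7.98e-05). In Winnie against C57BL/6 DESeq2 called Tead4 higher at the limits of the study, and edgeR called none of the list at those limits. Yap1 (0.11 ± 0.09), Tead1 (0.51 ± 0.18) and Lats1 (0.42 ± 0.08) were short of 1.5-fold. Of 6 Notch and secretory fate genes edgeR called 0 at the limits of the study and DESeq2 1, Hes1. With edgeR, Hes1 (-0.67 ± 0.16) and Atoh1 (-0.67 ± 0.20) were lower and Jag1 (0.75 ± 0.22) higher at the wider limit in Winnie-Prolapse against C57BL/6.

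The 12 proliferation genes were mostly higher in both colitis groups than in C57BL/6. Of these 12, 7 rose in Winnie-Prolapse against C57BL/6 at the limits of the study and 11 at the wider limit, with a median of 1.24. The list included Ccna2 (1.54 ± 0.20), Top2a (1.42 ± 0.26) and Mki67 (1.24 ± 0.27, at the wider limit only). At the wider limit 11 rose in Winnie against C57BL/6, with a median of 1.06, and DESeq2 called 8 at the limits of the study, and in Winnie-Prolapse against Winnie 0 passed either limit with edgeR or DESeq2 (median 0.25). Without the squamous-rich libraries the counts in Winnie-Prolapse against C57BL/6 were 0 and 3, with a median of 0.83.

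**Figure D5:**
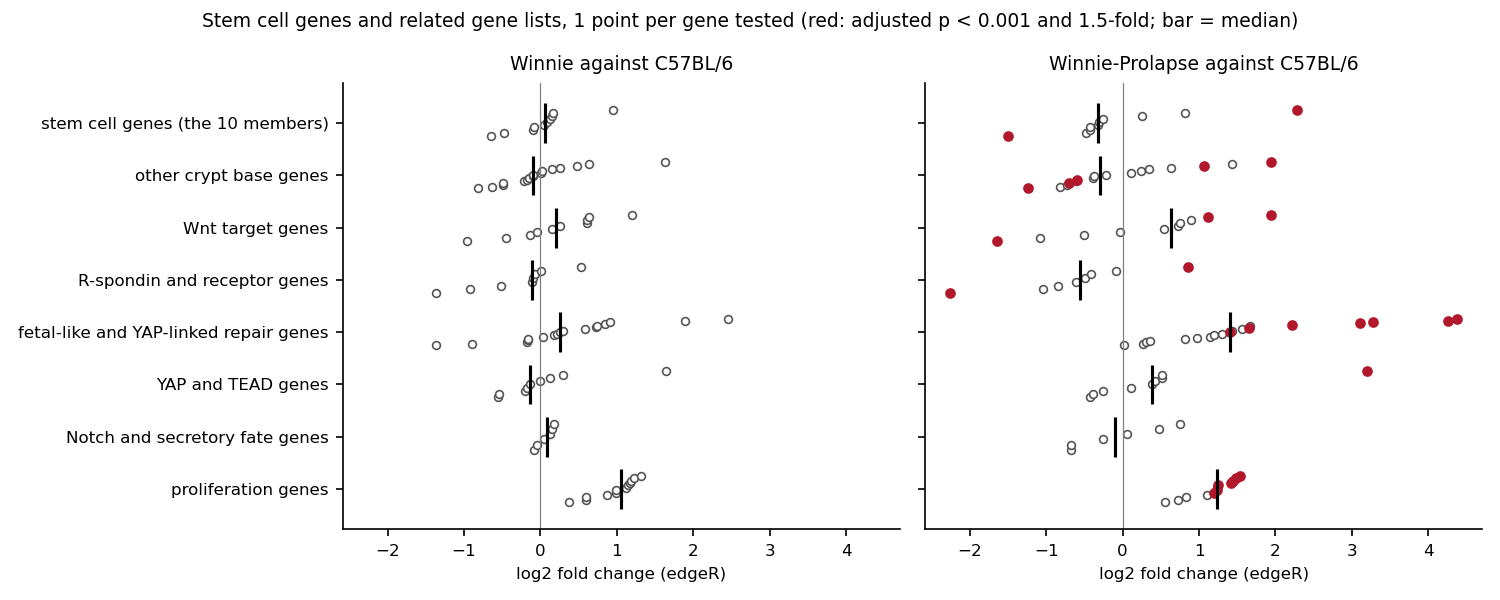
Log2 fold change against C57BL/6 of each tested gene of the 10 members and 7 related lists, in Winnie (left) and Winnie-Prolapse (right), on the same axis, with the list median as a bar and genes past the limits of the study in red. With edgeR no gene is red in Winnie, whereas in Winnie-Prolapse 2 members, 5 other crypt base genes, 3 Wnt target genes, 2 R-spondin or receptor genes, 7 repair genes, 1 TEAD gene and 7 proliferation genes are.

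Markers of other cell types differed between the groups as well. In Winnie-Prolapse against C57BL/6, 8 of 8 smooth muscle genes (median -1.84) and 5 of 8 enteric neuron and glia genes (median -1.85) fell, 6 of 8 leukocyte genes rose (median 1.55), and 2 of 10 colonocyte genes fell (median -1.63). Of the colonocyte genes only Car1 passed without Winnie-Prolapse replicate 6, Krt20 was also called higher without C57BL/6 replicate 7, and DESeq2 called 4 lower. Of 8 fibroblast genes, 5 were higher at the wider limit (median 0.61), and at the limits of the study edgeR called 0 and DESeq2 2, Col1a1 and Pdgfra. Without the squamous-rich libraries 2 leukocyte genes and no smooth muscle, enteric, colonocyte or fibroblast gene passed the limits of the study. At the wider limit 8 smooth muscle and 5 enteric genes were then lower, and the medians of the colonocyte and fibroblast lists were -0.36 and -0.17, the latter with the opposite sign. Smooth muscle genes summed to 7324 to 13463 CPM in C57BL/6 and 1442 to 3532 CPM in Winnie-Prolapse, and no marker of these lists was at 0 in all libraries of a group. In Winnie against C57BL/6 edgeR called 0 of these genes at the limits of the study, whereas DESeq2 called 3 smooth muscle, 6 enteric, 2 leukocyte and 1 fibroblast gene. The squamous gene Krt13 had medians of 0.201 CPM in C57BL/6 and 0.777 CPM in Winnie. At the wider limit 8 of 8 smooth muscle genes (median -0.89) and 8 of 8 enteric genes (median -1.26) were lower, 5 of 8 leukocyte genes (median 0.88) were higher, and 2 fibroblast genes were lower and 1 colonocyte gene higher. Without Winnie replicate 2 these counts were 5, 7, 4, 2 and 0, with medians of -0.84, -1.15 and 0.74 for the first 3 lists. In Winnie-Prolapse against Winnie the wider limit was passed by 3 smooth muscle genes and 2 colonocyte genes, all lower, and by 1 enteric and 2 leukocyte genes, all higher. Without Winnie-Prolapse replicate 6 none of these did, although the list medians changed little. With and without that library, they were -0.94 and -0.88 for smooth muscle and -1.85 and -1.65 for colonocyte genes. They were -0.71 and -0.69 for enteric genes, and 0.66 and 0.64 for leukocyte genes. The part of these shifts in the changes of the members was not tested.

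Sex was tested in 1 fit of the 22 libraries that also held the group. No member differed between males and females at an adjusted p under 0.05 (edgeR; the lowest was 0.617), and 14 of 17769 genes, or 0.0788%, did. At an unadjusted p under 0.05, 2 members did, against 4.37% of all genes. Those 2 were Axin2, at 0.34 ± 0.09 in males against females on the log2 scale, and Clu, at -0.94 ± 0.35. No member had a sex by group interaction in any of the 3 comparisons (lowest edgeR adjusted p = 0.293), with 1 at an unadjusted p under 0.05, Sox9 in Winnie-Prolapse against Winnie, where 12.9% of all genes were. That share was 18.5% in Winnie against C57BL/6 and 4.34% in Winnie-Prolapse against C57BL/6. Over all genes 47 of 17289, or 0.272%, had such an interaction in Winnie against C57BL/6, and 3 did with library size as the only scaling. The other comparisons gave 0%.

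Relations between members were computed within each group on log2 CPM, for 4 pairs of genes in 3 groups. None of the 12 passed after adjustment (exact permutation test, two-sided, lowest Benjamini-Hochberg adjusted p = 0.219). Lgr5 and Ascl2 had a Pearson r of 0.67 (Spearman rho 0.64) in C57BL/6 (n = 8, exact permutation p = 0.0692 and 0.0962, adjusted 0.277 and 0.385), and 0.74 without the 2 libraries farthest from the median. In Winnie-Prolapse r was -0.58 (rho -0.64; n = 7, exact permutation p = 0.179 and 0.139, adjusted 0.429 and 0.4), and 0.09 without the 2 farthest libraries. With TMM-scaled library totals that r was -0.86 (adjusted exact permutation p = 0.138), and -0.53 without the same 2 libraries. Lgr5 and Mki67 had an r of 0.84 in Winnie-Prolapse (rho 0.75; n = 7, exact permutation p = 0.0183 and 0.0663, adjusted 0.219 and 0.385), and 0.60 without the 2 farthest. Over the other 9 relations r ranged from -0.17 to 0.69.

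Over all 22 libraries, with each group centred on its mean, the genes most like Lgr5 among 14124 genes were Brd8 (r = 0.86), Gle1 (0.85) and Tarsl2 (0.85). Those most like Clu were Glycam1 (0.86), Mfge8 (0.80) and Lmo2 (0.77). Glycam1 reached 533 CPM and Mfge8 1368 CPM in Winnie-Prolapse replicate 6, the milk-rich library with the highest Clu, against at most 21.8 CPM and 189 CPM in the other 21 libraries. In both genes that second value was C57BL/6 replicate 5, the library with the second highest Clu.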

How the data were processed

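Distal colon RNA of 22 mice was extracted with TRIzol and an RNeasy kit, and stranded poly(A) libraries were sequenced with paired ends. The authors used the RNAsik pipeline to align reads to GRCm38 and deposited raw read counts per gene. The submitters' processing notes name STAR, featureCounts and limma. Annotation release, strand setting and handling of multi-mapped reads were not given in the sources used here. Groups were taken from the sample labels, which have no field for a batch.

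Each comparison was fitted on the deposited counts of its groups, over all genes, with edgeR 4.0.16 in R 4.3.3 (quasi-likelihood F test, TMM factors, filterByExpr, package defaults) and Benjamini-Hochberg adjustment. The fit was tested on simulated data. CPM was the count divided by the library total, and relations used log2 CPM with a prior count of 2 and exact permutation tests (SciPy 1.17.1, Python 3.11.15). Alternatives used DESeq2 1.42.0, limma 3.58.1, other scalings and filters, sex, milk genes left out and each library left out. No libraries were duplicates.

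The members and gene lists were chosen with earlier results of these data known. Genes named from a pathway list were the 3 with the highest mean CPM, those with the largest called change in each direction and those behind a count of 5 or fewer, and for Lgr5 and Clu the 3 most alike genes. Cell type lists are given by counts and sums. The labels do not say how mice were assigned to litters or cages, and p-values of the group tests set differences against the spread between these mice. The identity of the Rnf43 and Znrf3 proteins was not analysed here, and some genes behind a count are not reported here. Every library held at least 39 counts of each member.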

Additional observations from a re-analysis of the deposited data

Results flagged for a closer look

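Of the 30 sets of values formed by 10 members in 3 groups, 1 had a library far from the rest of its group by Dixon's criterion. Clu in Winnie-Prolapse replicate 6 had 362 CPM, the next library had 165 CPM, and the gap took 0.59 of the range of the 7 libraries. Chance alone gives such a gap in about 1 in 20 sets. The same library had 179624 CPM of milk protein transcripts, against at most 54.2 CPM in the other 21 libraries, and the part of these in the Clu value was not tested.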

How the results depend on the processing

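Of the values recomputed under other settings, 1245 were labelled the same by the rule for their kind of value, and 13 reversed. Another 8 moved, 8 came to pass a limit and 4 no longer passed, and the cause of each change was not tested. The values were not only fold changes, and some, such as counts of members past the limits, have no direction. The 1245 are therefore not a count of tests that kept their result. In Winnie against C57BL/6, the number of members past the limits was 0, but 2 at an adjusted p under 0.05, 1 with DESeq2 and 0 to 1 on leaving out each library in turn (1 without Winnie replicate 5). Over all genes the calls were 16, but 2757 at an adjusted p under 0.05, 1203 with DESeq2 and 677 without Winnie replicate 5. They were 0 without C57BL/6 replicate 1, 2 or 6. In Winnie-Prolapse against C57BL/6, the number of members past the limits was 2. It was 0 in males alone, where Ascl2 was at -1.37 and Anxa1 at 2.33, and 1 in females alone, where Ascl2 was at -1.77. It was also 1 without the squamous-rich libraries, where Ascl2 was at -1.13, a setting chosen after seeing the data. Over all genes the calls went from 3186 to 307, 255 and 468 in these settings. In Winnie-Prolapse against Winnie, the number of members was 0, but 3 at an adjusted p under 0.05 and 1 with DESeq2. Over all genes these calls were 0, 1191 and 644. Leaving out each library in turn, Ascl2 ranged from -1.63 to -1.39 and Anxa1 from 2.14 to 2.38 in Winnie-Prolapse against C57BL/6, and both passed each time.

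In Winnie against C57BL/6, Sox9 (0.05) was at -0.03 with library size only, at -0.32 in males and from -0.06 to 0.13 on leaving out each library. Rnf43 was at 0.05 and Znrf3 at 0.09 in males, and Lgr5 at -0.16 in females. In Winnie-Prolapse against C57BL/6, Lrig1 was at 0.03 in females, and Smoc2 at -0.07 and Clu at -0.21 without the squamous-rich libraries. In Winnie-Prolapse against Winnie, Sox9 was at 0.08 in males and Smoc2 at -0.17 without the squamous-rich libraries. No paired analysis was possible because the labels give no replicate numbers shared between groups (replicates are numbered here in order of deposit). With 7 or 8 mice a group, differences of about the size of the standard errors given were not detectable, and larger ones could also miss the limits. Anxa1 in Winnie against C57BL/6, at 0.95 ± 0.18 on the log2 scale, missed the limits of the study. A member that did not pass is therefore not shown to be unchanged.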
